A study of Mus musculus with 12 samples.

Results

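The collagen chain genes were taken as every gene of the deposited table whose symbol has the form Col, a number, a and a number. The rule found 44 of 20368 genes. They were measured by RNA-seq of whole hearts from CD1 mouse embryos, with 3 libraries in each of 4 groups. Control hearts were Mesp1Cre;Hira+/fl and mutant hearts Mesp1Cre;Hira-/fl, each at E11.5 and at E12.5. Every group therefore carried Mesp1Cre, a targeted allele of Mesp1, and 1 floxed Hira allele. The mutants also carried a constitutive null allele in all their cells, and Mesp1Cre recombines the floxed allele in the early mesodermal progenitors of the heart, so cells of other origin, such as neural crest, keep it. Hira encodes a histone chaperone that places the variant H3.3 in chromatin. Nothing in the labels says whether a library came from 1 heart or from pooled hearts, and p-values measure the spread between these libraries.

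Collagens are trimers of alpha chains wound into a triple helix, and each chain has its own gene. Fibrillar collagens form the banded fibres that resist tension, and basement membrane collagens form the sheet-like network under epithelia, endothelia and around muscle cells. FACIT collagens (fibril-associated collagens with interrupted triple helices) sit on the surface of fibrils, and beaded filament, network, multiplexin, anchoring fibril and transmembrane collagens make up most of the remainder. In the embryonic heart, collagens are laid down by the mesenchyme of the endocardial cushions, by the epicardium and its derivatives and by the endocardium, and they form much of the matrix of the later valves.

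The 12 libraries held 11994148 to 17483982 counts. Hira itself did not pass the test. In the E11.5 controls its CPM (counts per library total, scaled to a common depth) was 78.1 ± 8.89 (SD, n = 3) against 64.7 ± 8.42 in the E11.5 mutants. The means at E12.5 were 75.1 ± 13.1 in controls and 73.7 ± 5.19 in mutants, and edgeR gave adjusted p = 0.589 and 0.961 for the stages, so its level over the whole gene, which includes exons outside the recombined part, did not check the genotype labels. Heart muscle markers were high throughout (summed level of 6 genes 11327 RPKM or more in every library). All E11.5 controls were male by their Y-linked counts, and 1 E11.5 mutant, 1 E12.5 control and 1 E12.5 mutant were male. In 4 libraries the 4 liver genes summed to at least 5 RPKM: E11.5 control replicate 1 (13.4), E11.5 mutant replicate 1 (27.7) and E12.5 mutant replicates 1 (25.2) and 3 (7.3). Results that change without them are given both ways. In bulk tissue, fewer cells of a type and less RNA per cell cannot be told apart.

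The upstream sequences of 4 genes are shown because these genes led the differences between genotypes at one of the stages and have a window in RefSeq's table, which holds none for Col2a1, Col9a3 and Col14a1. Col16a1 lies on chromosome 4 at 130047840 to 130099283 on the plus strand (GRCm38) and Col8a2 on the same chromosome and strand at 126286793 to 126314330. Col8a1, whose product pairs with that of Col8a2, lies on chromosome 16 at 57624258 to 57754737 on the minus strand, and Col7a1 on chromosome 9 at 108953586 to 108984875 on the plus strand. Each line gives 249 bases upstream of the RefSeq start (build GRCm38.p6), 5′ to 3′ on the strand of the gene. Capitals mark the GC box, GGGCGG or its reverse complement CCGCCC. The windows are chr4:130047590-130047838, chr16:57754739-57754987, chr4:126286544-126286792 and chr9:108953336-108953584. That of Col16a1 also holds an exon of the gene Gm12963.
Col16a1: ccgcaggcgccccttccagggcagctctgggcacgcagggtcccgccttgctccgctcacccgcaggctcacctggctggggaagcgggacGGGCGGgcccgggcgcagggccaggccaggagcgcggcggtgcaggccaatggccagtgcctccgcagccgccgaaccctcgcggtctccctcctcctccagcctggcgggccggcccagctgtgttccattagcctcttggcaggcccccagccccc
Col8a1: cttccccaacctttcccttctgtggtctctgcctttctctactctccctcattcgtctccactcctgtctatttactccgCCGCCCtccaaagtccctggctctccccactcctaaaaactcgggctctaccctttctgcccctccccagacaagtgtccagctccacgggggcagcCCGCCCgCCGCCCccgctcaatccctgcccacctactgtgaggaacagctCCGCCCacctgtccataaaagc
Col8a2: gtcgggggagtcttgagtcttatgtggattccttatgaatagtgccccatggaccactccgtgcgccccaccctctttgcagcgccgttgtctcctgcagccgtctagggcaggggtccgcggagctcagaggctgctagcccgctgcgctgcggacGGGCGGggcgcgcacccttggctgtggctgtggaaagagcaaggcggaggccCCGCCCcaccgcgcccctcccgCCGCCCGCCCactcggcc
Col7a1: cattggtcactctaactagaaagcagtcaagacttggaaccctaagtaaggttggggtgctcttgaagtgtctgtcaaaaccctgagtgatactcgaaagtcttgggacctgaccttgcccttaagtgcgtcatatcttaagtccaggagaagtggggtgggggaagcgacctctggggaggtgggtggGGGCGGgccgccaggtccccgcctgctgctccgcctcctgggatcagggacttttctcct

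The window of Col16a1 held 1 GC box, that of Col7a1 held 1, and those of Col8a1 and Col8a2 held 4 each. RefSeq windows matched 35 of the 44 genes. Each of these genes was read by 1 window, whereas the shares over all windows were not reduced to 1 per gene. A GC box on either strand was present in 21 of these 35 (60.0%) and in 32.6% of all 32851 windows of the same length. The CCAAT box (CCAAT or ATTGG) was in 12 of 35 (34.3%) against 33.8%, and the TATA box (TATAAA or TTTATA) in 5 of 35 (14.3%) against 12.4%. HIRA-bound sites of embryonic hearts were reported to be rich in GAGA repeats. GAGAGAGA or TCTCTCTC was in the windows of 3 of 35, Col6a3, Col24a1 and Col28a1 (8.57%), against 3.23%. These matches are letters in the windows, not bound sites.

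Levels are given as RPKM, reads per kilobase of gene length at a common library depth, computed here from recovered counts with TMM library scaling, so that levels of different genes can be set side by side. Of the 44 chains, 22 had a mean of at least 5 RPKM over the 12 libraries, 34 had at least 0.5 RPKM, and 10 were lower. The 10 low chains were Col17a1, Col4a4, Col24a1, Col4a3, Col6a4, Col5a3, Col6a5, Col10a1, Col19a1 and Col28a1, with means from 0.021 to 0.347 RPKM. Col28a1 had no read in 4 libraries, and Col5a3, Col10a1 and Col19a1 had none in 1 library each. All 44 had reads in at least 1 library.

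**Figure D1:**
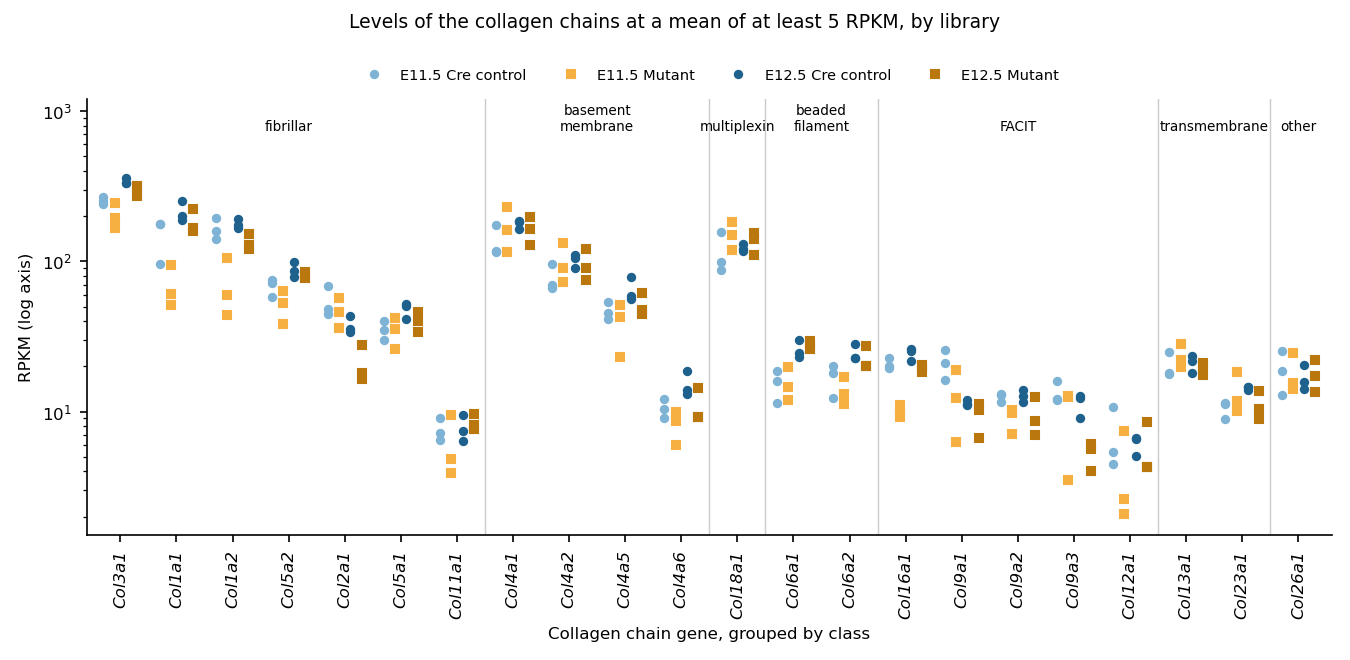
Level of each of the 22 collagen chains with a mean of at least 5 RPKM (log axis) in each of the 12 libraries, grouped by class. Circles are Cre controls and squares mutants, pale for E11.5 and dark for E12.5. Col3a1 is at the top, at 273 RPKM on average, and the E11.5 mutant squares of Col1a1, Col1a2 and Col16a1 lie below all other points of their gene.

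Fibrillar chains were the most abundant. Col3a1, the single chain of type III collagen of distensible tissue, led with a mean of 273 RPKM. Col1a1 and Col1a2, whose products form type I collagen, followed within the class at 153 and 136 RPKM. Col5a2 and Col5a1, the chains of type V collagen that controls the diameter of type I fibrils, had 72.1 and 39.3 RPKM. Col2a1, best known as the main collagen of cartilage and also made in cushion mesenchyme, had 39.5 RPKM and Col11a1, its usual partner, 7.48 RPKM. The fibrillar class made up 37.1% to 58.8% of the summed collagen RPKM of a library.

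The basement membrane chains Col4a1 and Col4a2, which form the ubiquitous type IV trimer, had 161 and 93.1 RPKM. The X-linked chains Col4a5 and Col4a6 had 50.3 and 11.2 RPKM, and Col4a3 and Col4a4, the chains of the mature kidney filter, were near the bottom of the list at 0.151 and 0.241 RPKM. The class made up 18.8% to 35.4% of the collagen RPKM. Col18a1, a basement membrane multiplexin that is the source of endostatin, stood at 130 RPKM, close to Col1a2, and the ranges of these 2 genes over the 12 libraries overlapped. The remaining chains over 5 RPKM were Col6a1 and Col6a2 (21.0 and 19.4, beaded filaments), the transmembrane chains Col13a1 and Col23a1 (21.0 and 12.3), Col26a1 (17.9), and the FACIT chains Col16a1, Col9a1, Col9a2, Col9a3 and Col12a1 (18.7, 13.6, 10.9, 9.88 and 5.68). Their ranges over the libraries overlapped with those of their neighbours in this order.

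Chains that share a trimer or a promoter region did not all keep the same proportion. Col4a1 and Col4a2, which are transcribed away from each other on chromosome 8 and whose annotated ends overlap by 22 bases, had a ratio of 1.57 to 1.83 in all 12 libraries (Pearson r of the log2 levels 0.98 over 12 libraries that share stages and genotypes). Col4a5 and Col4a6, also head to head, with 1308 bases between them, had ratios of 3.87 to 5.18 (r = 0.96). The ratio of Col1a1 to Col1a2 ran from 0.688 to 1.48 (r = 0.91). In controls its mean was 0.902 ± 0.214 at E11.5 and 1.20 ± 0.108 at E12.5 (SD, n = 3), and in mutants 1.03 ± 0.14 and 1.37 ± 0.0956.

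Some ratios separated the genotypes. Col6a1 to Col6a2, neighbours on chromosome 10 whose products assemble into type VI collagen, had ratios of 0.888 to 0.925 among the E11.5 controls. In the E11.5 mutants they were 1.11, 1.17 and 1.06. At E12.5 they were 1.07, 1.06 and 1.01 for the controls, against 1.36, 1.30 and 1.07 for the mutants. The genotypes did not overlap at either stage, but at E12.5 the nearest libraries (1.069 and 1.071) were almost equal. Neither gene alone was called in the mutants at either stage. The ratio of Col1a2 to Col3a1 was 0.582 to 0.730 in the E11.5 controls and 0.262 to 0.433 in the E11.5 mutants, and 0.489 to 0.569 against 0.394 to 0.477 at E12.5. Other pairs were also computed. Col5a1 to Col5a2 separated the genotypes at E11.5 only (0.418 to 0.599 in controls, 0.655 to 0.678 in mutants). At E12.5 only, Col8a1 to Col8a2 (0.644 to 1.08 against 0.312 to 0.399) and Col2a1 to Col9a1 (2.94 to 3.89 against 1.75 to 2.46) did. The remaining pairs overlapped at both stages. The ratios described were picked after their values were seen and carry no test, and no share over pairs of other genes was computed.

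**Figure D2:**
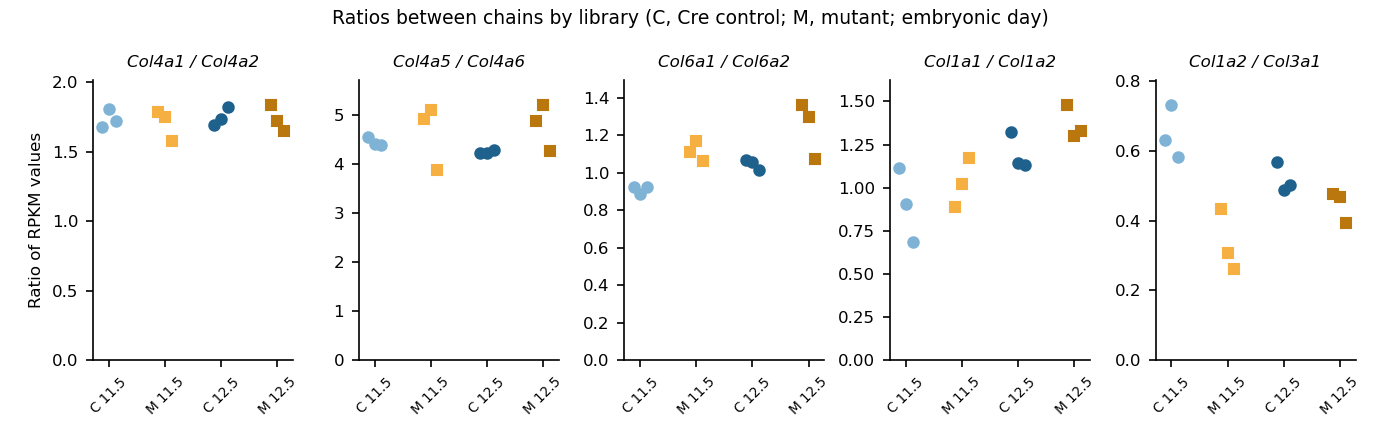
Ratio of the RPKM values of chain pairs in each of the 12 libraries (axes start at 0; C, Cre control; M, mutant). Col4a1 over Col4a2 stays between 1.57 and 1.83, while Col6a1 over Col6a2 and Col1a2 over Col3a1 do not overlap between genotypes at either stage.

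The first comparison asked how the collagen genes of mutant hearts stood at E11.5. The test was the quasi-likelihood test of edgeR on the counts of the genes with a mean of at least 0.5 RPKM, and a gene was called when its Benjamini-Hochberg adjusted p, over all genes tested, was at most 0.05 and its change at least 1.5-fold. At E11.5, 32 of the 44 chains could be tested and 1 was called, Col16a1, against 0.115% of all genes tested. Without adjustment, 8 of 32 were lower at p under 0.05 (5.44% of all genes) and 2 of 32 higher (4.83% of all genes). The libraries of the genotypes did not overlap for 10 of 32 chains, against 16.3% of all genes. The median log2 fold change of the 32 chains was -0.31 and that of all genes -0.01.

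Col16a1, the FACIT chain of fibrils and fibrillin microfibrils, had 19.6, 20.2 and 22.6 RPKM in the E11.5 controls, against 11.1, 9.18 and 10.2 RPKM in the mutants. Every mutant library lay below every control library. The log2 fold change was -1.03 ± 0.13 (SE; 2.05-fold lower in mutants, adjusted p = 0.0302, edgeR). The call depended on single libraries: it held without mutant replicate 3 and was lost without any 1 of the other 5 (highest adjusted p 0.207), and also with sex as a term (adjusted p = 0.0528), while the fold change stayed between -1.14 and -0.96 over all alternatives. The only male mutant had 10.2 RPKM against 19.6 to 22.6 in the controls, which were all male. As the genotypes did not overlap, every mutant lay below the controls, and a single male mutant gives no measure of spread. Without the libraries with liver RNA the log2 fold change was -1.14 (adjusted p = 0.141).

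The network chains Col8a1 and Col8a2, which form the hexagonal lattice of type VIII collagen made by endothelium and smooth muscle, had the next lowest p-values. Col8a1 stood at 2.19, 2.54 and 2.77 RPKM in the E11.5 controls, against 1.25, 1.05 and 0.876 in the mutants. Its log2 fold change was -1.23 ± 0.21 (adjusted p = 0.0801, edgeR), short of the threshold. Col8a2 had 6.22, 4.36 and 5.07 RPKM in the controls, against 2.55, 2.65 and 2.07 in the mutants (log2 fold change -1.10 ± 0.19, adjusted p = 0.0814). For both genes no mutant library reached a control library.

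In RPKM, type I collagen had the largest of these differences. Col1a1 had 177, 176 and 96.3 RPKM in the E11.5 controls, against 93.8, 60.5 and 51.2 in the mutants, so the ranges came close without overlap (log2 fold change -1.13 ± 0.28, adjusted p = 0.182). Col1a2 had 158, 195 and 140 RPKM against 106, 59.4 and 43.8 (log2 fold change -1.24 ± 0.30, adjusted p = 0.165). Among the mutants, replicate 1 was the highest for both. Col6a6, a chain of type VI collagen that can take the place of the Col6a3 chain, was low, with 0.726, 0.968 and 1.07 RPKM in controls, against 0.472, 0.358 and 0.346 in mutants (log2 fold change -1.23 ± 0.26, adjusted p = 0.125). Col1a1, Col1a2, Col6a6, Col8a1 and Col8a2 were called beside Col16a1 both by DESeq2 (6 chains in all) and by an edgeR fit that estimated the spread over all 12 libraries (6 chains). Both fits also called more of all genes at E11.5 than the main fit did (14 of 12197). Their counts over all genes are given in the last paragraph.

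By class at E11.5, 8 of the 9 fibrillar chains tested had lower means in mutants (median log2 fold change -0.31), as had 6 of 8 FACIT chains (-0.54), 3 of 4 beaded filament chains (-0.53) and both network chains (-1.17). None of these members was called except Col16a1. The basement membrane chains had no common direction. Col4a1 had 117, 175 and 115 RPKM in controls, against 161, 231 and 115 in mutants (log2 fold change 0.32 ± 0.26, adjusted p = 0.792), and Col4a2 differed by 0.34 ± 0.23 (adjusted p = 0.732). The means of the other 4 chains of the class were lower in mutants. The groups overlapped for Col4a1, Col4a2, Col4a5 and Col4a6. As a share of the collagen RPKM, fibrillar chains took 58.8%, 55.4% and 56.6% in the controls, against 50.9%, 37.1% and 44.7% in the mutants. The multiplexins took 7.88%, 10.5% and 7.94% against 12.4%, 15.2% and 14.2%. Their summed RPKM overlapped between the genotypes, with 99.4, 158 and 88.8 in controls, against 151, 183 and 120 in mutants.

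Col7a1, the chain of the anchoring fibrils that hold epithelial basement membranes to the matrix, was on the other side, with 1.02, 0.801 and 0.641 RPKM in controls, against 1.32, 1.43 and 1.47 in mutants (log2 fold change 0.78 ± 0.21, adjusted p = 0.211). The 3 mutant libraries all lay above the controls. Col20a1, a FACIT chain, had 0.754 to 0.936 RPKM in controls and 1.04 to 1.42 in mutants (0.62 ± 0.24, adjusted p = 0.431). Col14a1, the FACIT chain undulin, had 2.77 to 3.68 RPKM in controls and 1.89 to 2.26 in mutants (-0.58 ± 0.17, adjusted p = 0.243), and Col9a2 had 11.6 to 13.1 against 7.1 to 10.2 (-0.47 ± 0.16, adjusted p = 0.331).

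Markers of other cell types moved in the same libraries. The 6 epicardial and mesothelial genes summed to 178 to 284 RPKM in the E11.5 controls and to 111 to 163 in the mutants, and 4 of the 6 were lower at unadjusted p under 0.05 with none called. Of the 7 cushion mesenchyme and fibroblast genes 1 was lower at that level, with sums of 207 to 247 RPKM in controls, against 191, 102 and 212 in mutants. Postn made up most of these sums, with 140 to 191 RPKM in controls and 66.1 to 152 in mutants. The 4 macrophage genes summed to 9.24 to 21.9 RPKM in controls and 4.49 to 6.39 in mutants, and all 4 were lower at unadjusted p under 0.05. The 6 endothelial and endocardial genes summed to 251 to 297 RPKM in controls and 291 to 415 in mutants, and 2 were higher at that level, Pecam1 (0.51 ± 0.15) and Cdh5 (0.63 ± 0.25), with none called. Of the cartilage list, 2 of 2 tested genes were higher at that level, uncalled. No gene of the heart muscle, smooth muscle, erythroid, foregut, liver or skeletal muscle lists reached it. The part of these cells in the collagen differences was not tested.

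**Figure D3:**
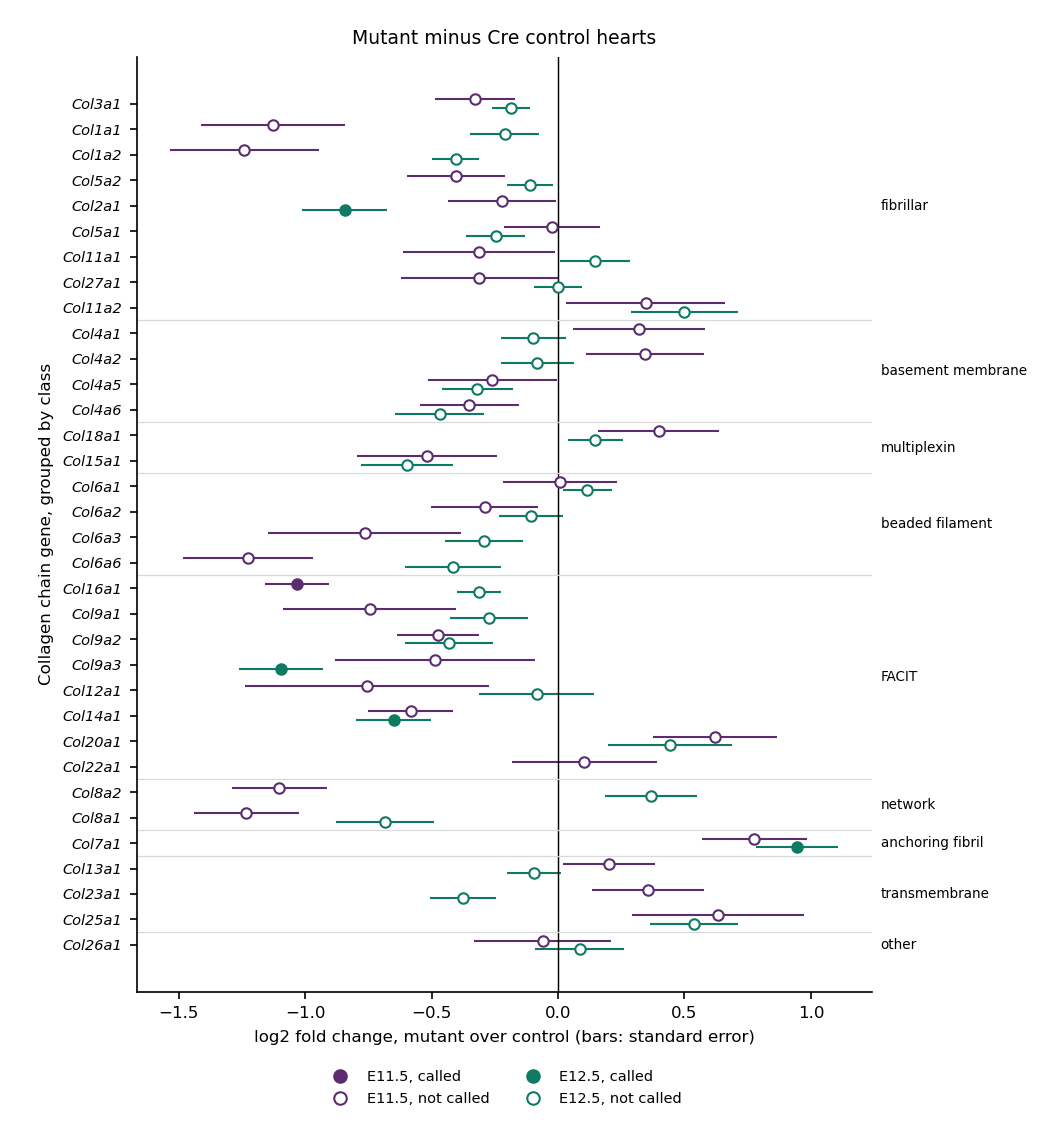
Log2 fold change of each tested collagen chain in mutant over control hearts, with the standard error as a bar, at E11.5 (purple) and E12.5 (green). Filled points were called, 1 at E11.5 (Col16a1) and 4 at E12.5 (Col2a1, Col9a3, Col14a1 and Col7a1). The X-linked chains Col4a5 and Col4a6 come from a fit to which X-linked genes were added.

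The second comparison asked the same at E12.5. Of the 31 chains tested, 4 were called, against 3.03% of all genes tested. Col2a1, Col9a3 and Col14a1 fell and Col7a1 rose. Without adjustment 10 of 31 were lower at p under 0.05 (10.2% of all genes) and 3 of 31 higher (11.2% of all genes). The genotypes did not overlap for 11 of 31 chains, against 26.4% of all genes, and the median log2 fold change was -0.11 for the chains and -0.00 for all genes.

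Col9a3, 1 of the 3 chains of the FACIT collagen IX that decorates type II fibrils, had 12.3, 12.7 and 9.01 RPKM in the E12.5 controls, against 5.62, 6.09 and 4.05 in the mutants. All mutant libraries lay under all controls. With the spread estimated over all 12 libraries the call was lost (adjusted p = 0.181). The log2 fold change was -1.09 ± 0.17 (2.14-fold lower, adjusted p = 0.00583, edgeR), and leaving out any 1 library kept the call. At E11.5 the same gene had 12.2, 16.0 and 11.9 RPKM in controls, against 12.6, 3.52 and 12.6 in mutants, where only mutant replicate 2 was low (-0.49 ± 0.40, adjusted p = 0.789). A stretch of 6.07% of its exonic bases overlaps Tcfl5 on the other strand, and the sources used here do not state whether the counting used strand.

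Col2a1, the chain of the type II fibrils that collagen IX covers, had 43.2, 35.2 and 34.0 RPKM in the E12.5 controls, against 18.0, 16.4 and 27.6 in the mutants. The groups did not overlap, and mutant replicate 3 came nearest to the controls. The log2 fold change was -0.84 ± 0.17 (1.80-fold lower, adjusted p = 0.0179). The call was lost without control replicate 1, without mutant replicate 1 or 2 and in the fit over all 12 libraries. The highest adjusted p over all alternatives was 0.0901. The other chains of this fibril moved less: Col9a1 differed by -0.27 ± 0.15 (adjusted p = 0.341), Col9a2 by -0.43 ± 0.17 (0.182), Col11a1 by 0.15 ± 0.14 (0.584) and Col11a2 by 0.50 ± 0.21 (0.200).

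Col2a1 and Col9a3 are also cartilage genes, and 4 of the 5 genes of a cartilage marker list were measured. Acan and Matn1 were at 0.23 RPKM or less in every library. Matn3 had 0.394 to 0.591 RPKM in the E12.5 controls and 0.261 to 0.422 in the mutants, and was too low to be tested at that stage. Hapln1, a link protein of both cartilage and cushion matrix, was called higher in mutants, with 24.1 to 30.0 RPKM in controls and 41.3 to 49.0 in mutants (0.79 ± 0.10), and it made up most of the list's sum, which was 24.7 to 30.6 RPKM in controls and 41.8 to 49.6 in mutants. Sox9, which drives Col2a1 in cartilage and is also made in cushions, had 6.14 to 7.62 RPKM in the E12.5 controls and 5.52 to 6.93 in the mutants (log2 fold change -0.09 ± 0.12, adjusted p = 0.714). The part of cartilage in these differences was not tested.

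Col14a1 had 9.15, 9.31 and 6.12 RPKM in the E12.5 controls, against 5.43, 5.52 and 4.55 in the mutants, with control replicate 3 within 1 RPKM of the mutants. The log2 fold change was -0.65 ± 0.15 (1.57-fold lower, adjusted p = 0.0329). This call held without control replicate 3 and was lost without any 1 of the other 5 libraries. It was also lost in the fit over all 12 libraries.

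Col7a1 had 1.15, 1.03 and 0.989 RPKM in the E12.5 controls, against 1.76, 1.75 and 2.55 in the mutants. All mutant libraries were above all controls, as at E11.5, and replicate 3 was the highest. The log2 fold change was 0.95 ± 0.16 (1.93-fold higher, adjusted p = 0.0101), and the call held without any 1 library and in the fit over all 12. The level is low, and 2256 reads in all 12 libraries together lay on the gene. Epithelial markers were highest in E12.5 mutant replicate 3 at this stage, where the 5 foregut and lung genes summed to 5.01 RPKM against 0.591 and 0.510 in the other mutants and 0.160 to 0.854 in the controls. In mutant replicates 1 and 2 Col7a1 was also above the 1.15 RPKM of the highest control. The part of epithelium in this result was not tested.

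Without the 2 E12.5 mutant libraries with liver RNA a single mutant library, replicate 2, remained. Its log2 fold changes against the 3 controls were -1.18 for Col2a1, -0.89 for Col9a3, -0.56 for Col14a1 and 0.74 for Col7a1, in the directions found with all libraries. The spread then comes from the controls alone and the lone mutant library is assumed to vary like them, so no call is read from that fit.

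The chains that led the E11.5 comparison were not called at E12.5. Col1a2 had 190, 175 and 167 RPKM in controls, against 151, 127 and 120 in mutants. The groups did not overlap (log2 fold change -0.40 ± 0.09, adjusted p = 0.0334), but the change was under 1.5-fold. Col1a1 had 251, 200 and 189 RPKM against 223, 165 and 159, with overlap (-0.21 ± 0.14, adjusted p = 0.411). Col16a1 had 25.3, 26.2 and 21.7 RPKM against 19.9, 18.2 and 20.3 (-0.31 ± 0.09, adjusted p = 0.0615). Col8a1 had 1.95, 1.70 and 1.71 RPKM against 0.956, 0.925 and 1.42, all mutants below all controls (-0.68 ± 0.19, adjusted p = 0.0671). Col8a2, in contrast, had 1.81, 2.54 and 2.65 RPKM in controls, against 2.44, 2.97 and 3.57 in mutants (0.37 ± 0.18, adjusted p = 0.274).

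**Figure D4:**
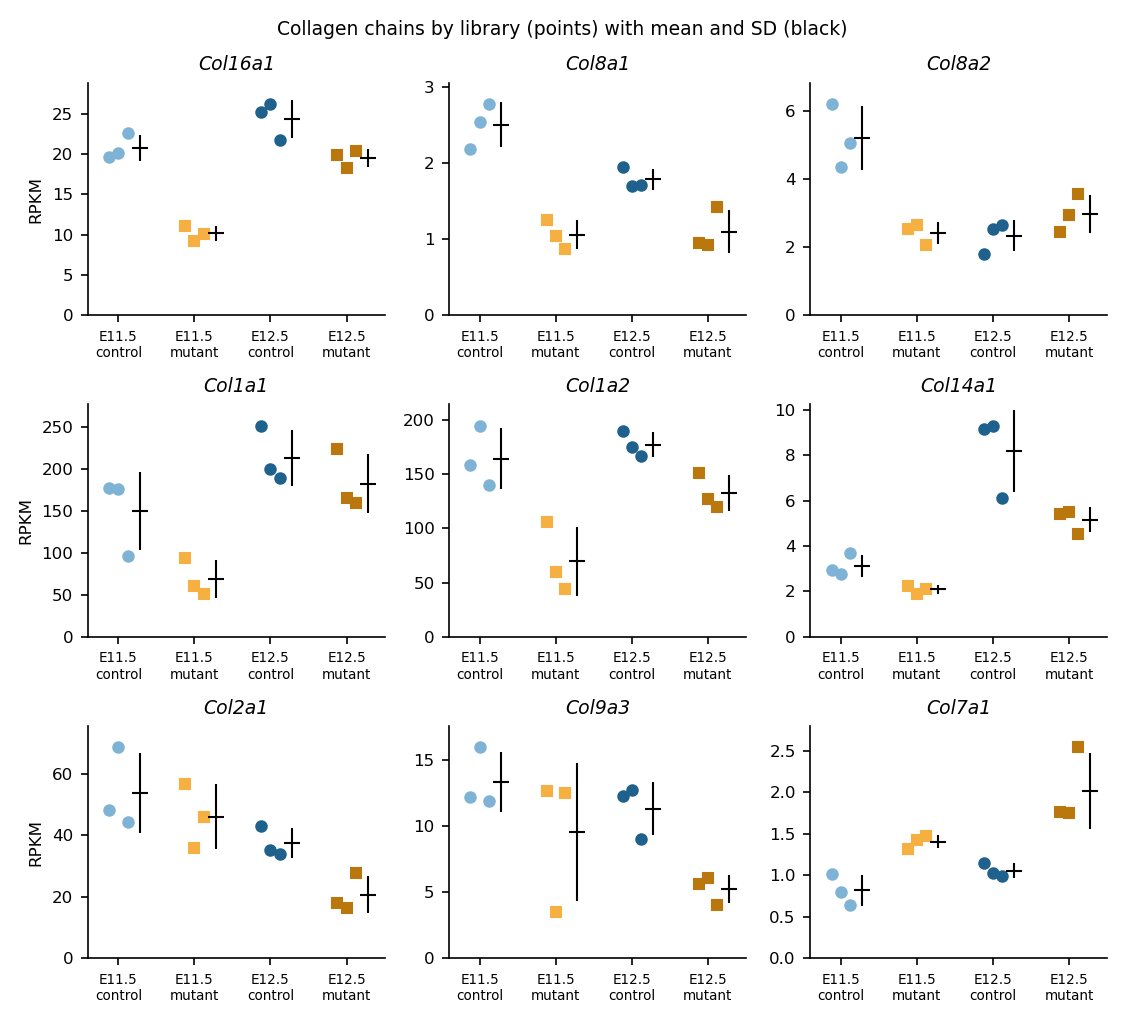
RPKM of 9 collagen chains in each library (axes start at 0), with the mean and SD of each group in black (n = 3). Col16a1 in the E11.5 mutants lies between 9.18 and 11.1 RPKM, under all other groups, and the group means of Col2a1 and Col9a3 are lowest in the E12.5 mutants.

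The basement membrane chains overlapped between the genotypes at E12.5, and none was called. Col4a1 had 186, 181 and 163 RPKM in controls, against 165, 129 and 198 in mutants (-0.10 ± 0.13, adjusted p = 0.708), and Col4a2 differed by -0.08 ± 0.14 (adjusted p = 0.789). For the X-linked pair, Col4a5 differed by -0.32 ± 0.14 (adjusted p = 0.218) and Col4a6 by -0.47 ± 0.18 (adjusted p = 0.153) at E12.5, and by -0.26 ± 0.26 and -0.35 ± 0.20 at E11.5 (adjusted p = 0.843 and 0.618). Col18a1 differed by 0.15 ± 0.11 (adjusted p = 0.466) and Col3a1 by -0.19 ± 0.08 (adjusted p = 0.187).

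At E12.5 the 7 cushion mesenchyme and fibroblast genes summed to 190 to 252 RPKM in controls and 143 to 177 in mutants. Postn, a matrix protein of cushions and valves, was the only one called (-0.61 ± 0.13). It made up most of the sum, at 167 ± 27.2 RPKM in controls and 108 ± 16.9 in mutants (SD, n = 3). No other gene of this list reached unadjusted p under 0.05. The epicardial genes summed to 125 to 190 RPKM in controls and 164 to 190 in mutants, with Msln called higher (1.03 ± 0.19). Erythroid genes summed to 1010 to 1932 RPKM in controls and 514 to 703 in mutants, with 3 of 4 tested called lower, and 2 of 4 macrophage genes were called lower. Of the smooth muscle and pericyte genes Pdgfrb was called lower (-0.69 ± 0.11), while the list summed to 720 to 978 RPKM in controls and 1022 to 1188 in mutants. Acta2 made up most of that sum, with 594 to 807 RPKM in controls and 883 to 1018 in mutants (0.41 ± 0.11, uncalled). Tagln differed by 0.15 ± 0.12. At unadjusted p under 0.05, 4 of 6 heart muscle genes and 2 of 6 endothelial genes were higher, with none called, as were 3 of 4 liver genes. The part of these cells in the collagen differences was not tested.

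Whether the mutant difference itself changed between the stages was asked with an interaction term. No chain of 32 was called by edgeR, and 0.0% of 12270 genes were. At unadjusted p under 0.05, 5 chains had a higher mutant to control ratio at E12.5 than at E11.5 (Col1a1, Col1a2, Col6a6, Col8a2 and Col16a1; 2.63% of all genes) and 1 a lower ratio, Col23a1 (1.87% of all genes). DESeq2 called 2 chains and 42 genes.

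The third comparison asked how collagen expression changed from E11.5 to E12.5 in controls. Of 32 chains tested, 7 were called (5.31% of all genes): Col6a6, Col15a1, Col14a1, Col20a1 and Col6a1 rose, and Col8a2 and Col9a1 fell. Without adjustment 16 of 32 were higher at p under 0.05 (16.4% of all genes) and 4 of 32 lower (16.3% of all genes). The stages did not overlap for 17 of 32 chains, against 37.4% of all genes. The median log2 fold change was 0.36, against 0.01 for all genes. Markers of other cell types changed between the stages in the same libraries. At unadjusted p under 0.05, 2 of the 7 cushion mesenchyme and fibroblast genes were lower, Sox9 and Twist1 (-0.57 ± 0.11 and -0.46 ± 0.19). At that level 2 of the 6 endothelial and endocardial genes were higher, Pecam1 and Cdh5 (0.39 ± 0.10 and 0.60 ± 0.17). No gene of either list was called. Of the 6 epicardial genes 5 were lower at unadjusted p under 0.05, with Wt1 and Upk3b called lower (-0.67 ± 0.16 and -0.77 ± 0.21) and Msln called higher (1.05 ± 0.29), and the sum went from 178 to 284 RPKM at E11.5 to 125 to 190 at E12.5. Tagln and Rgs5 of the smooth muscle list were called lower (-1.18 ± 0.14 and -1.37 ± 0.34), and that list summed to 1175 to 1482 RPKM and then 720 to 978. Acta2 made up most of that sum, with 866 to 1118 RPKM and then 594 to 807 (-0.42 ± 0.14, uncalled). Of 4 erythroid genes 2 were called lower and 1 higher. Mrc1 of the macrophage list, Ckm of the skeletal muscle list and Ryr2 of the heart muscle list were called higher (1.21 ± 0.32, 1.86 ± 0.15 and 0.76 ± 0.18), and Hapln1 lower (-1.16 ± 0.12). Of the 6 heart muscle genes, Myl7 and Myl4 were lower at unadjusted p under 0.05 (-0.61 ± 0.20 and -0.39 ± 0.12), uncalled. The heart muscle list summed to 12883 to 15028 RPKM at E11.5 and 11327 to 13315 at E12.5. Their part in the collagen differences was not tested. Stage cannot be told apart from any batch in which the hearts of a stage were collected or sequenced together.

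Among the beaded filament chains, Col6a6 had 0.726 to 1.07 RPKM at E11.5 and 2.61, 3.80 and 3.22 at E12.5 in controls (log2 fold change 1.80 ± 0.19, adjusted p = 0.00227). Its call held in every alternative in which it was tested. Col6a1 had 11.4 to 18.7 RPKM at E11.5 and 23.0 to 29.7 at E12.5 (0.74 ± 0.17, adjusted p = 0.0288). Col6a2 and Col6a3, its partner chains, had log2 fold changes of 0.54 ± 0.17 and 0.99 ± 0.32 (adjusted p = 0.0574 and 0.0684). All 4 tested chains of the class had higher means at E12.5, with a median of 0.87.

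Col15a1, the multiplexin of capillary and muscle basement membranes, had 0.972 to 1.45 RPKM at E11.5 and 2.63 to 4.47 at E12.5 (1.66 ± 0.23, adjusted p = 0.00655). Col14a1 had 2.77 to 3.68 RPKM and then 6.12 to 9.31 (1.39 ± 0.17, adjusted p = 0.00507), and Col20a1 0.754 to 0.936 and then 1.23 to 2.02 (0.94 ± 0.24, adjusted p = 0.0383). None of the 3 overlapped between the stages. In the other direction, Col8a2 had 4.36 to 6.22 RPKM at E11.5 and 1.81 to 2.65 at E12.5 (-1.15 ± 0.18, adjusted p = 0.0112). Col9a1 had 16.3 to 25.6 RPKM and then 11.1 to 12.0 (-0.87 ± 0.15, adjusted p = 0.0137).

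The E11.5 controls were all male, whereas only replicate 3 of the E12.5 controls was male. With sex as a term 1 of the 7 calls was left, Col6a6 (adjusted p = 0.0204), and for the other 6 the adjusted p ran from 0.088 to 0.576. In that single male E12.5 control the 5 chains that rose had 3.22 (Col6a6), 2.63 (Col15a1), 6.12 (Col14a1), 1.23 (Col20a1) and 23.0 RPKM (Col6a1), each above the highest E11.5 control. Col8a2 at 2.65 and Col9a1 at 11.2 RPKM were each below the lowest. As the stages did not overlap for any of the 7 chains, this was so for every E12.5 control. A single male library gives no measure of spread. Among the fits that left out 1 library, Col6a6, Col14a1 and Col15a1 kept their calls. Without E12.5 control replicate 1 the other 4 were lost, and without replicate 2 so were Col9a1, Col6a1 and Col20a1. Col6a1 was also lost without E11.5 control replicate 3, and Col20a1 without E11.5 control replicate 1 or 3.

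The abundant fibrillar chains shifted less. Col3a1 had 241 to 267 RPKM at E11.5 and 333 to 358 at E12.5 in controls, without overlap (0.44 ± 0.09, adjusted p = 0.0270), and Col5a1 29.9 to 40.0 and 41.5 to 52.3 (0.46 ± 0.13, adjusted p = 0.0455); both were under 1.5-fold. Col2a1 had 44.3 to 68.7 RPKM and then 34.0 to 43.2 (-0.52 ± 0.16, adjusted p = 0.0588). Of the basement membrane chains Col4a1 and Col4a2 differed by 0.39 each (SE 0.16 and 0.15, adjusted p = 0.116 and 0.0986), and Col4a6 by 0.53 ± 0.15 (adjusted p = 0.0454, in the fit with X-linked genes).

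In mutants, 5 of 32 chains were called between the stages (0.523% of all genes), and all 5 rose: Col6a6, Col15a1, Col14a1, Col16a1 and Col6a3. Without adjustment 14 of 32 were higher at p under 0.05 (5.42% of all genes) and 1 of 32 lower, Col2a1 (3.71% of all genes). The stages did not overlap for 15 of 32 chains, against 17.4% of all genes, and the median log2 fold change was 0.49, against 0.00 for all genes. Of the macrophage genes 4 of 4 were higher at unadjusted p under 0.05, with Csf1r and C1qa called (1.80 ± 0.25 and 2.34 ± 0.37), and they summed to 4.49 to 6.39 RPKM at E11.5 and 14.4 to 17.6 at E12.5. Of 4 erythroid genes 3 were called lower. Msln and Ckm were called higher (2.19 ± 0.23 and 1.91 ± 0.25) and Hapln1 lower (-0.71 ± 0.11). The part of these cells in the collagen differences was not tested.

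Col6a6 had 0.346 to 0.472 RPKM in the E11.5 mutants and 2.03, 3.17 and 1.94 at E12.5 (log2 fold change 2.60 ± 0.26, 6.07-fold, adjusted p = 0.00853). Col15a1 had 0.640 to 1.04 RPKM and then 2.18 to 2.77 (1.57 ± 0.23, adjusted p = 0.0274). Col14a1 had 1.89 to 2.26 and then 4.55 to 5.52 RPKM (1.31 ± 0.14, adjusted p = 0.00997). For these 3 genes the rise was called in both genotypes, in libraries that the 2 comparisons do not share.

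Col16a1 had 9.18 to 11.1 RPKM in the E11.5 mutants and 18.2 to 20.3 at E12.5 (0.95 ± 0.12, adjusted p = 0.0143). In controls its change was 0.23 ± 0.10 (adjusted p = 0.152), from 19.6 to 22.6 up to 21.7 to 26.2 RPKM. The ranges of the E12.5 mutants and the E11.5 controls overlapped. Col6a3, the long chain of type VI collagen that releases endotrophin, had 0.790 to 1.34 and then 2.41 to 3.08 RPKM in mutants (1.45 ± 0.22, adjusted p = 0.0303). Col1a1 had 51.2 to 93.8 RPKM at E11.5 and 159 to 223 at E12.5 in mutants (1.42 ± 0.24, adjusted p = 0.0543), and Col2a1 35.8 to 56.8 and then 16.4 to 27.6 (-1.15 ± 0.23, adjusted p = 0.0996).

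The count of 5 rested on the E12.5 mutant libraries: 1 chain was called without replicate 1, 0 without replicate 2 (10 and 1 of all genes) and 2 without replicate 3. Without the libraries with liver RNA 1 E12.5 mutant library is left against 2 at E11.5, and the log2 fold changes were 3.18 for Col6a6, 1.48 for Col14a1, 0.93 for Col16a1, 1.71 for Col15a1 and 1.55 for Col6a3. The spread then comes from the E11.5 mutants alone, so no call is read from that fit.

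**Figure D5:**
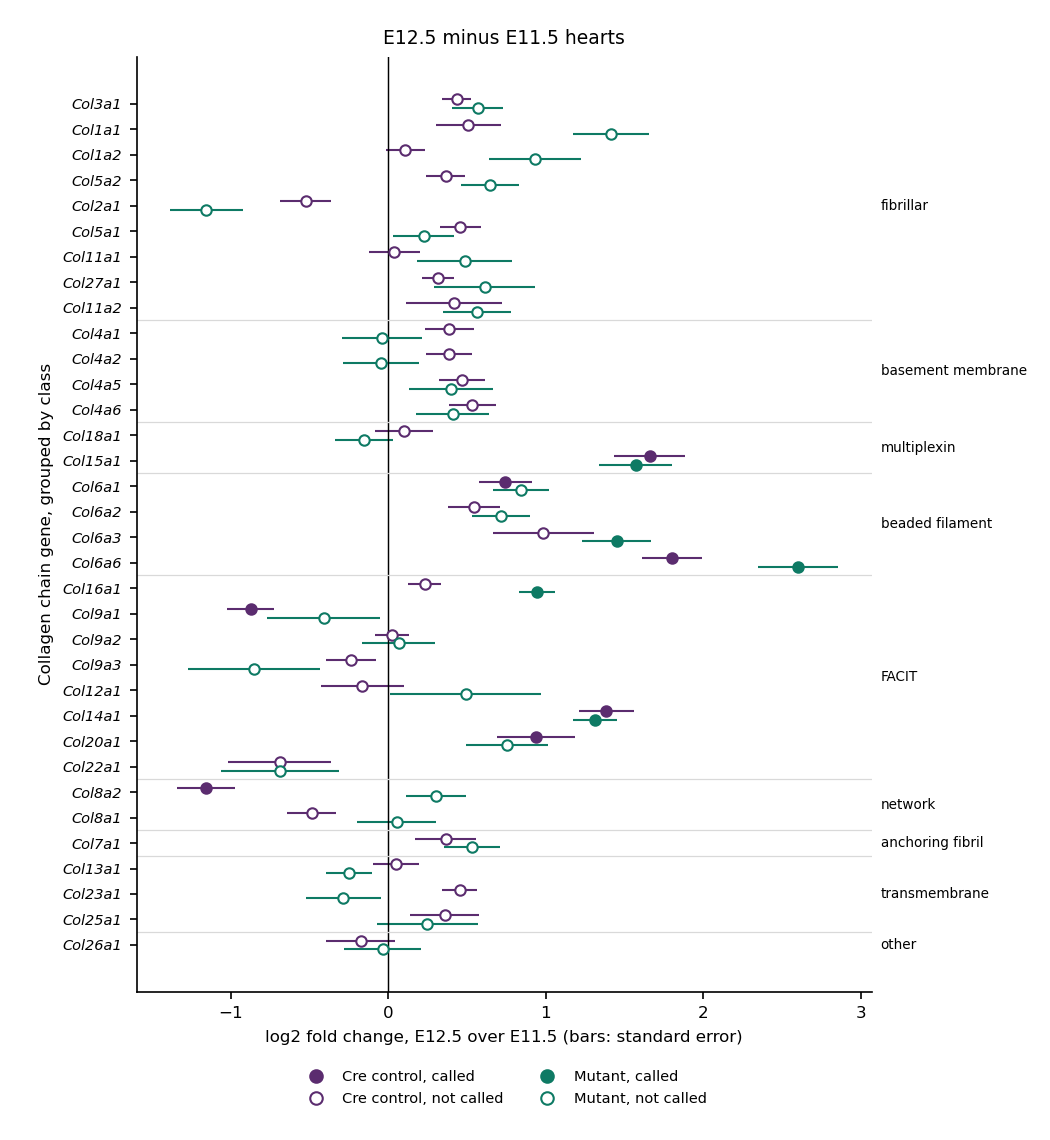
Log2 fold change of each tested collagen chain from E11.5 to E12.5, with the standard error as a bar, in controls (purple) and mutants (green). Filled points were called, 7 in controls and 5 in mutants. Col6a6, Col15a1 and Col14a1 are filled in both, and Col8a2 lies at -1.15 in controls and 0.31 in mutants.

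Genes that make, bind and remodel collagen were followed as lists. Of the 18 tested genes of collagen biosynthesis in the endoplasmic reticulum, 0 were called at E11.5 (0.115% of all genes). At unadjusted p under 0.05, 2 were higher (4.83% of all genes) and 1 lower (5.44% of all genes). At E12.5, 1 was called (3.03% of all genes), P4ha3, a catalytic subunit of prolyl 4-hydroxylase. It had 11.1, 12.4 and 9.61 RPKM in the E12.5 controls, against 7.28, 5.83 and 6.18 in the mutants (-0.77 ± 0.13, adjusted p = 0.00859). The most abundant genes of the list, the collagen chaperone Serpinh1, the hydroxylase subunit P4hb and the isomerase Ppib, differed by 0.10 ± 0.07, -0.12 ± 0.08 and 0.13 ± 0.07 at E12.5 and were not called. No gene of the list was called between the stages in either genotype (5.31% of all genes in controls and 0.523% in mutants).

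Of the genes for procollagen processing and crosslinking, 12 were tested at E11.5 and 11 at E12.5. None was called by edgeR (0.115% and 3.03% of all genes at the stages). At unadjusted p under 0.05, 3 were lower at E11.5 (5.44% of all genes). At E12.5, 4 were lower (10.2% of all genes) and 1 higher (11.2% of all genes). Lox, the lysyl oxidase that crosslinks collagen and elastin, had 8.69, 7.10 and 7.94 RPKM in the E11.5 controls, against 4.68, 2.11 and 2.08 in the mutants (-1.41 ± 0.30, adjusted p = 0.127), with no overlap. The most abundant gene, Sparc, a collagen-binding matricellular protein, had 480 to 514 RPKM in the E12.5 controls and 394 to 420 in the mutants (-0.27 ± 0.07, adjusted p = 0.0425), under 1.5-fold. Pcolce and Loxl2, an enhancer of procollagen cleavage and a lysyl oxidase, differed by 0.09 ± 0.09 and 0.24 ± 0.09 at E12.5.

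The 8 tested collagen receptors gave no call in mutants at either stage (edgeR). At unadjusted p under 0.05, 1 was lower at E11.5 (5.44% of all genes). At E12.5, 0 were lower (10.2% of all genes) and 0 higher (11.2% of all genes). Itgb1, the common beta subunit of the collagen-binding integrins, was the most abundant, with 172 to 266 RPKM over the 12 libraries. Itga10 rose from E11.5 to E12.5 in controls (0.557 to 1.05 RPKM and then 1.36 to 1.79, log2 fold change 0.95 ± 0.25, adjusted p = 0.0392). None of the 4 tested collagenases, gelatinases and their inhibitors was called in any comparison by edgeR. At unadjusted p under 0.05, 0 differed in mutants at E11.5 and 1 was higher at E12.5 (11.2% of all genes). Between the stages, 1 was higher in controls (16.4% of all genes) and 3 in mutants (5.42% of all genes).

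Among the 16 other basement membrane components, Lama2 and Lamc3, which encode laminin subunits, fell in the E12.5 mutants. Lama2, the alpha chain of the laminin around muscle cells, had 12.7, 7.04 and 9.01 RPKM in controls, against 3.83, 3.93 and 5.56 in mutants (-1.09 ± 0.20, adjusted p = 0.0122). Lamc3 had 0.890 to 1.21 RPKM against 0.335 to 0.463 (-1.44 ± 0.22, adjusted p = 0.00646). The genotypes did not overlap for either gene. At E11.5 Lama2 differed by -1.17 ± 0.29 and Lamc3 by -1.76 ± 0.40, uncalled. At that stage 5 of the 16 were lower at unadjusted p under 0.05 (5.44% of all genes). Lamb1, Nid2 and Lama4, the most abundant of the list, were not called in mutants. From E11.5 to E12.5 in controls Lama2 rose (1.25 ± 0.19) and Lama1 and Lamc3 fell (-1.31 ± 0.17 and -1.08 ± 0.29). At unadjusted p under 0.05, 8 of the 16 were higher (16.4% of all genes) and 2 lower (16.3% of all genes). No gene of the list was called between the stages in mutants, where 0.523% of all genes were called, against 5.31% in controls. For the difference of the mutant effects between the stages, none of the 16 was called and 0 reached unadjusted p under 0.05.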

How the data were processed

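RNA of embryonic hearts was sequenced in 12 libraries, 3 in each of 4 groups. Per the labels, reads were aligned to mm10 with Bowtie2 2 and normalised with DESeq; counter, annotation and strand are not given in the sources used here. The authors deposited 1 table of values that they named RPKM and that is treated as a signal: each value is a whole count multiplied by a gene length and a library factor. The deposited average counts per group, which are values of the expected count kind made by the authors, fixed these factors. Counts were recovered for 17827 of 19424 compared genes, within 7.32e-06 of whole numbers, and 1597 had none. Of 944 genes outside the comparisons, 844 are X-linked, and counts of 694 were recovered from their common divisor. The design assumed RPKM or counts, and the count test was used. The deposited fold changes, z scores and p-values were not used.

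Counts were fitted per comparison with edgeR 4.0.16 (R 4.3.3; TMM, quasi-likelihood test, genes at a mean of at least 0.5 RPKM over the libraries of the fit, adjusted p of at most 0.05 over all genes and 1.5-fold). DESeq2 1.42.0, limma 3.58.1 on log2(RPKM + 0.5), filters, scalings, a sex term and left-out libraries were the alternatives. The steps were tested on simulated data. Chains with a mean of at least 5 RPKM, or called in a comparison, are named with values, and so are some others near the threshold that were chosen after their values were seen; of the partner lists, the called genes and up to 3 abundant ones are named, with Lox added after its values were seen. One result of these lists is not reported here. Coordinates are those of GENCODE vM21. The mutant comparisons share libraries with the stage comparisons. The members, lists and tests were chosen with earlier results of these data known.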

Additional observations from a re-analysis of the deposited data

Results flagged for a closer look

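The mutant difference of 2 collagen chains differed between the stages by one of the tools run. DESeq2 gave a difference of 1.46 ± 0.30 on the log2 scale for Col8a2 (adjusted p = 0.00168), which was lower in mutants at E11.5 and not called at E12.5. For Col16a1 it gave 0.71 ± 0.16 (adjusted p = 0.00777). The edgeR fit had the same sizes, 1.46 ± 0.27 and 0.71 ± 0.15, with adjusted p = 0.217 and 0.256. For Col8a2 the mutant libraries were lower than the controls in 3 of 3 at E11.5, and the genotypes overlapped at E12.5.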

How the results depend on the processing

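The counts of called chains depended on the settings more than the fold changes did. At E11.5 (1 chain) the count was 3 with no filter on low values, 6 with DESeq2, 6 with all 12 libraries in one fit, 5 with the replicate number as a block, 0 with a sex term and 0 without libraries with liver RNA, and 0 to 1 when 1 library was left out. At E12.5 (4 chains) it was 7 with no filter, 1 with all 12 libraries in one fit, 2 with limma on log2(RPKM + 1), 1 without libraries with liver RNA (chosen after seeing the data), and 2 to 5 when 1 library was left out. Between the stages it was 3 in controls (7 chains) at a filter of 5 RPKM and 1 with a sex term, with 3 to 10 when 1 library was left out. In mutants (5 chains) it was 8 with no filter, 1 at 5 RPKM, 11 with DESeq2 and 1 without libraries with liver RNA, with 0 to 7 when 1 library was left out. For the difference of the mutant effects DESeq2 gave 2 and all other alternatives 0. Without libraries with liver RNA a single E12.5 mutant library is left, which is assumed to vary like the other group, so these counts rest on the spread of that group. The causes were not tested, except that a stricter filter tests fewer chains.

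Over all genes, DESeq2 called 248 at E11.5 (edgeR 14), 226 between the stages in mutants (64) and 42 for the difference (0); all 12 libraries in one fit gave 229 at E11.5, 127 at E12.5 (371), 345 between the stages in controls (650) and 124 in mutants, and the sex term 39 at E11.5 and 19 in controls. Of 314 alternative values of the 17 called fold changes, all kept their direction and 245 their call. The labels do not say whether the replicate numbers pair the libraries. Same-numbered libraries correlated at -0.04, 0.43 and 0.29 at E11.5 and at 0.02 to 0.06 at E12.5. Between the stages the range was -0.13 to 0.17 in controls and -0.03 to 0.07 in mutants. With 3 libraries in each group these values do not settle whether the libraries were paired. The replicate block gave 5, 4, 8, 5 and 0 chains and 96, 445, 755, 26 and 0 genes. Depth limits the 10 chains under 0.5 RPKM, which were not compared.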
